A study of Mus musculus with 14 samples.

Results

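Open chromatin at the collagen genes was compared between 7 lines of small cell lung cancer from mice. Members were the protein-coding genes of GRCm38.p6 with a symbol made of Col, a number, the letter a and a number. There were 44 of them among 21887 protein-coding genes on chromosomes 1 to 19, X and Y. Each gene was given the accessible regions that overlap its body or the 10 kb on either side. In all, 318 different regions lay at 43 of the 44 genes, and Col3a1 had none. Of the 44 genes, 22 had a mean of at least 3 regions per line and were tested, and 22 fell under this minimum. A gene that is high in 1 genotype only can pass the minimum through that genotype, so the 22 tested genes do not stand for all members.

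Collagens are secreted or membrane-bound proteins built from alpha chains that wind into a triple helix. Fibrillar collagens form the cables of connective tissue, type IV collagens the mesh of basement membranes, and fibril-associated collagens sit on the surface of fibrils. Transmembrane collagens cross the cell membrane and can be shed from it. In tumors, collagen is made mostly by fibroblasts, although carcinoma cells can express some chains and bind collagen through integrins and discoidin domain receptors. ATAC-seq uses a transposase that inserts adapters into open DNA, so a peak marks accessible chromatin, such as a promoter or an enhancer, and not expression.

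All lines carried the RPR2 genotype, which in this field stands for loss of Rb1, Trp53 and Rbl2. In 4 of them the mice also carried Nfibf/f, a floxed allele of Nfib. Its product, a member of the NFI family of DNA-binding factors, is known to promote spread of this cancer. Of the 3 RPR2 lines, 12N1G and N2N1G came from metastases in lymph nodes and 1373M1 from one in the liver. The 4 RPR2;Nfibf/f lines, called Nfibf/f here, were the liver metastasis lines 1398M1 and 1399M4 and the lung tumor lines 1398P2 and 1399P1. Liver metastasis was thus the single tissue found in both genotypes, and elsewhere genotype and tissue cannot be told apart. Neither the age of the mice nor the Cre that acted on the floxed alleles is given in the sources used here. Each line had 2 libraries and was counted as 1 replicate. It is not stated whether its libraries were separate cultures, or whether 1398M1 and 1398P2, or 1399M4 and 1399P1, came from separate animals, so p-values measure the spread between these samples, part of which may be technical.

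The lists held 65009 to 84220 peaks in 13 libraries and 33558 in replicate 2 of 1398P2, which stood apart. The lowest local background, a stand-in for depth, was 0.507 fragments per bp in that library and 0.632 to 1.134 in the other 13, so a missing peak there says less. Nfib itself had 19, 15 and 17.5 regions in 12N1G, 1373M1 and N2N1G, and 9.5, 6, 10.5 and 15 in 1398M1, 1398P2, 1399M4 and 1399P1. Peak lists do not show a deletion, so these values do not check the genotype. All 8 neuroendocrine marker genes, the defining genes of this cancer, had a peak within 1 kb of a gene end or start in all 14 libraries. Of 8 fibroblast markers 5 had none in any library, nor had any of 4 leukocyte markers or 3 of 4 hepatocyte markers. The fibroblast marker Thy1 had one in 13 libraries. Of 4 lung epithelium markers, 3 had one in all 14 libraries and Scgb1a1 in 13. Over all protein-coding genes, 52.4% of RefSeq starts had one in all 14 libraries and 28.1% in none. For genes scored at either end these shares were 48.6% and 24.4%.

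The windows before 5 gene starts are shown because the data bear on them. The first 4 belong to members among the 5 with the largest positive difference by genotype, and the fifth to Col6a1, whose start had a peak in Nfibf/f libraries only. Each is the 250 bases 5′ of the start on the gene's strand, from RefSeq (GRCm38.p6). Capitals mark matches, on either strand, to the half-site of NFI factors TTGGC, to the CCAAT box, to the GC box GGGCGG and to the TATA box TATAAA. A half-site read as GCCAA can overlap a CCAAT match.
Col13a1, chr10:61979109-61979358, minus strand: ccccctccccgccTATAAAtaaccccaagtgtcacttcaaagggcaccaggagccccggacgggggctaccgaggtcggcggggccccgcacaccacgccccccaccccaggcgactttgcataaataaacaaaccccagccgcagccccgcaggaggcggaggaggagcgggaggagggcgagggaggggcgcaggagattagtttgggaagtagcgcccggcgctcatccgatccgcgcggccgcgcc
Col25a1, chr3:130180595-130180844, plus strand: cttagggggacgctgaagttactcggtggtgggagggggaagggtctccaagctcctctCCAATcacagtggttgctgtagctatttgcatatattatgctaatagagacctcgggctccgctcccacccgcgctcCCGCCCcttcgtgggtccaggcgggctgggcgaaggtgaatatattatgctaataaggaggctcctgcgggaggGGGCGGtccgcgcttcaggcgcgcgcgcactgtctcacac
Col23a1, chr11:51289670-51289919, plus strand: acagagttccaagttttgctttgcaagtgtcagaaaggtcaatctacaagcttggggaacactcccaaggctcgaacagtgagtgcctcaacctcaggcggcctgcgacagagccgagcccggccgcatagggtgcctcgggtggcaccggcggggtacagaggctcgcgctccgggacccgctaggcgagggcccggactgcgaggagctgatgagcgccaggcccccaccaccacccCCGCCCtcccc
Col27a1, chr4:63215162-63215411, plus strand: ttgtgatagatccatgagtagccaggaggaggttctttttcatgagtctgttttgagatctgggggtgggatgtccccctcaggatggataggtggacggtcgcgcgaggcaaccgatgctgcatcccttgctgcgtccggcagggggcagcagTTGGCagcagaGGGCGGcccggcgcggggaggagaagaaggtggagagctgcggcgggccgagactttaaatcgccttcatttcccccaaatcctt
Col6a1, chr10:76726045-76726294, minus strand: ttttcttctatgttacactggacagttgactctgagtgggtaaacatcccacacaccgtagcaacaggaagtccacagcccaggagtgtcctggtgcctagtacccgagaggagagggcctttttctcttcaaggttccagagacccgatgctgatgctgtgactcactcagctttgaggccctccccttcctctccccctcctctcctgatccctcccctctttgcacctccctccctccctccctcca

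In the Col13a1 window a peak was found in none of the RPR2 libraries (0 of 6) and in 1 of 8 Nfibf/f libraries. For Col25a1 and for Col23a1, 6 of 6 RPR2 libraries and 7 of the 8 Nfibf/f libraries had one. The counts were 6 and 6 for Col27a1, and 0 and 7 for Col6a1. RefSeq gave 38 such windows for 35 of the 44 members. Their median GC content was 59.0%, against 55.6% over 21263 windows of all protein-coding genes. The palindromic NFI motif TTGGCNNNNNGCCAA matched in 0 of 38 collagen windows and in 0.033% of all windows. The half-site matched in 36.8% of collagen windows and 43.0% of all, CCAAT in 34.2% and 35.4%, the GC box in 57.9% and 42.6%, and TATAAA in 13.2% and 11.6%. Collagen windows with a peak in some libraries had a median GC content of 61.2% (24 windows), and those with none had 47.6% (11 windows). A match describes the letters only.

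Col13a1 encodes a transmembrane collagen of cell-matrix and neuromuscular junctions (chromosome 10, 61838234 to 61979206, minus strand). It had 9.5 regions in 12N1G, 10 in 1373M1 and 8.5 in N2N1G. The Nfibf/f lines 1398M1, 1399M4, 1398P2 and 1399P1 had 4.5, 4, 3 and 5.5 regions. Every RPR2 line lay above every Nfibf/f line, in lymph node and liver alike, and the number rose from 4.25 ± 1.04 (SD, n = 4) in Nfibf/f to 9.33 ± 0.76 (SD, n = 3) in RPR2 lines. On log2 of the scaled number plus 0.5, the RPR2 lines exceeded the Nfibf/f lines by 1.08 ± 0.14 (SE), with a limma adjusted p of 0.0193 over 7070 genes. The gene was singled out with this difference known, so its p gives no independent support. Replicate 2 of 1398P2 had no region at Col13a1 while replicate 1 had 6, and without replicate 2 the difference was 0.94 (limma adjusted p = 0.0302). The call was lost without replicate 1 of 1398P2 (1.83, limma adjusted p = 0.342) or of all lines (1.86, limma adjusted p = 0.329), and without the line 1398P2 (1.03, limma adjusted p = 0.065), 12N1G (1.07, limma adjusted p = 0.0926) or N2N1G (1.14, limma adjusted p = 0.0726). It was also lost without scaling, with peaks of -log10 q of at least 5, with regions open in both libraries only, with the lymph node lines averaged and in both fits of the 14 libraries, with limma adjusted p from 0.0561 to 0.28. With peaks of -log10 q of at least 2 the call was kept (1.04, limma adjusted p = 0.0256). In bulk cells, a region open in fewer cells and a region less open in each cell cannot be told apart.

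Col13a1 was the one collagen gene called in the test by genotype. Calls of more regions in RPR2 lines numbered 1 of 22 tested members, against a background of 0.438% of all tested genes, and calls of more in Nfibf/f lines 0 of 22, against 0.976% (either direction, 1.41%). It was not alone in its direction. Of the 22 members, 18 had a positive difference (81.8%), where 52.7% of all tested genes did. At an unadjusted p under 0.05, 9 members had more regions in RPR2 lines (40.9%, background 10.8%) and 1 had more in Nfibf/f lines (4.55%, background 11.1%). Scaled values of the lines did not overlap, with RPR2 higher, for 7 members (31.8%, background 11.7%) and for 0 members with Nfibf/f higher (background 8.71%). The 7 were Col13a1, Col27a1, Col23a1, Col9a1, Col5a1, Col18a1 and Col8a2. For Col5a1, Col18a1, Col8a2 and Col23a1 the lines overlapped before scaling. The median log2 difference was 0.47 over the 22 members and 7e-04 over all tested genes. Without replicate 2 of 1398P2 the median was 0.38, and 19 of 24 tested members were positive. These counts describe the tested members and are not support: Col9a1, Col4a3, Col25a1 and Col7a1 reached the minimum through the RPR2 lines, with Nfibf/f means under 3, and 0 members did so through the Nfibf/f lines. With no minimum, 33 of 43 members with a region were positive (76.7%, against 46.6% of 18488 genes), with a median of 0.34.

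**Figure D1:**
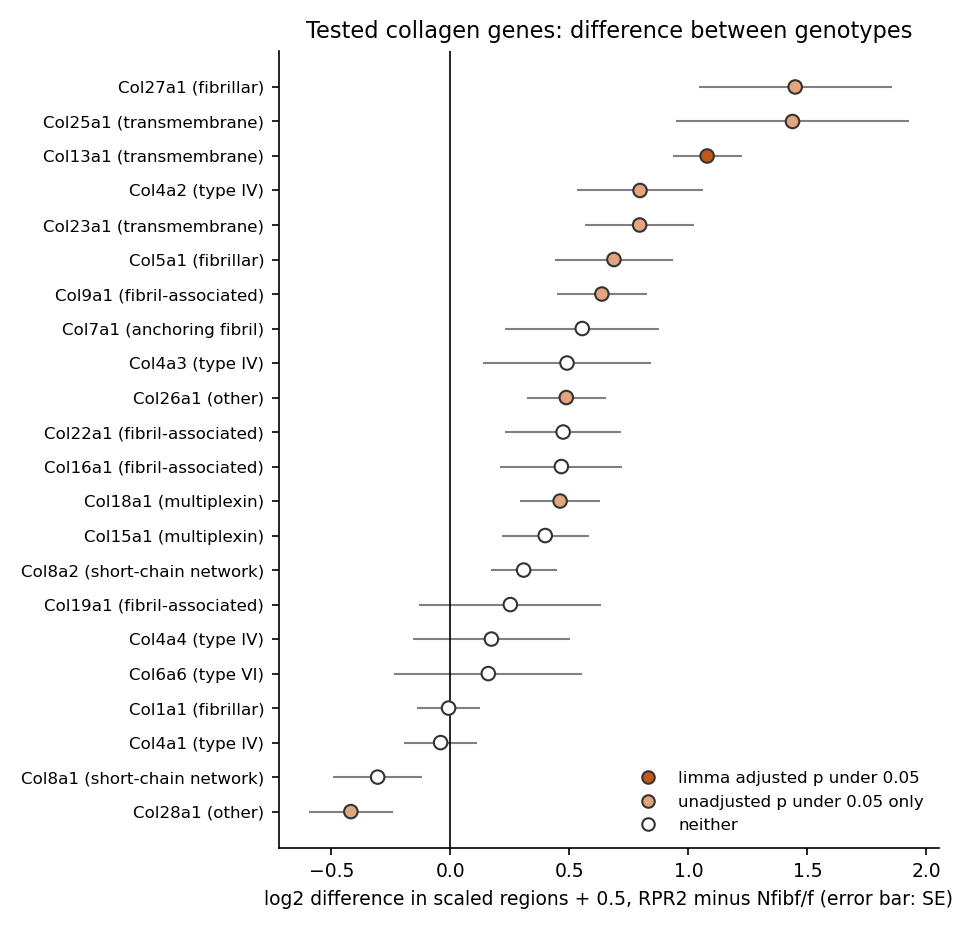
Log2 difference in the scaled number of regions plus 0.5, RPR2 minus Nfibf/f, for the 22 tested collagen genes, with the SE from limma as the bar; fill gives the test result. Col13a1 is the filled dark point at 1.08, below Col27a1 and Col25a1 in size, and 18 of the 22 points lie right of 0.

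By size, Col13a1 came after Col27a1 and Col25a1, and these 3 members had a log2 difference over 1 (13.6% of those tested, background 1.41%). With no minimum, 4 of 43 did (9.3%, against 2.06% of 18488 genes). Col27a1, a fibrillar collagen of cartilage (chromosome 4, 63214009 to 63334991), had 13, 11.5 and 12.5 regions in 12N1G, 1373M1 and N2N1G. The Nfibf/f lines 1398M1, 1399M4 and 1398P2 had 5, 3.5 and 1.5, but 1399P1 had 11. The lung tumor line 1399P1 thus lay next to the RPR2 lines and apart from the other Nfibf/f lines. The Col27a1 difference of 1.45 ± 0.41 (SE) did not pass (limma adjusted p = 0.0962), and without 1399P1 it was 1.82 (limma adjusted p = 0.0539). Replicate 2 of 1398P2 had no region at Col27a1 or Col25a1, and leaving it out gave 1.33 (limma adjusted p = 0.0932).

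Col25a1, a transmembrane collagen first known from amyloid plaques and needed for motor innervation (chromosome 3, 130180358 to 130599884), had 10 regions in 12N1G and 9.5 in N2N1G. The third RPR2 line, 1373M1, had 2. The Nfibf/f lines ranged from 1 in 1399M4 over 1.5 in 1398P2 and 2.5 in 1399P1 to 3 in 1398M1. Both lymph node lines stood far above all others, and 1373M1 lay within the Nfibf/f range. Its genotype difference was 1.44 ± 0.49 (SE; limma adjusted p = 0.141). Without 1373M1, which leaves lymph node lines only on the RPR2 side, it was 2.11 (limma adjusted p = 0.0106). Since 1373M1 was the lowest RPR2 line here, leaving it out had to raise the difference, and this p is not support. Col25a1 also reached the minimum through the RPR2 lines, with an Nfibf/f mean of 2. Leaving out replicate 2 of 1398P2 gave 1.32 (limma adjusted p = 0.202).

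Col23a1, the third transmembrane collagen tested (chromosome 11, 51289679 to 51583925), had 12.5 regions in both lymph node lines and 7.5 in 1373M1. The Nfibf/f lines 1398P2, 1399M4, 1398M1 and 1399P1 had 4, 5, 7 and 8.5. The lymph node lines were again highest, while 1373M1 lay between 1398M1 and 1399P1. The difference was 0.80 ± 0.23 (SE; limma adjusted p = 0.0999), and 1.02 (limma adjusted p = 0.0297) without 1373M1. As 1373M1 was again the lowest RPR2 line, the second p is not support. Of the 3 tested transmembrane collagens, 3 had more regions in RPR2 lines at an unadjusted p under 0.05 (10.8% of all tested genes did) and 1 was called (0.438% of all), while Col25a1 was high in the lymph node lines only. The remaining one, Col17a1, a hemidesmosome collagen of epithelia, had too few regions for the test: 1.5, 1.5 and 1 in 12N1G, 1373M1 and N2N1G against 2 to 3.5 in the Nfibf/f lines. It was looked up after its values were seen, and every Nfibf/f line lay above every RPR2 line.

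**Figure D2:**
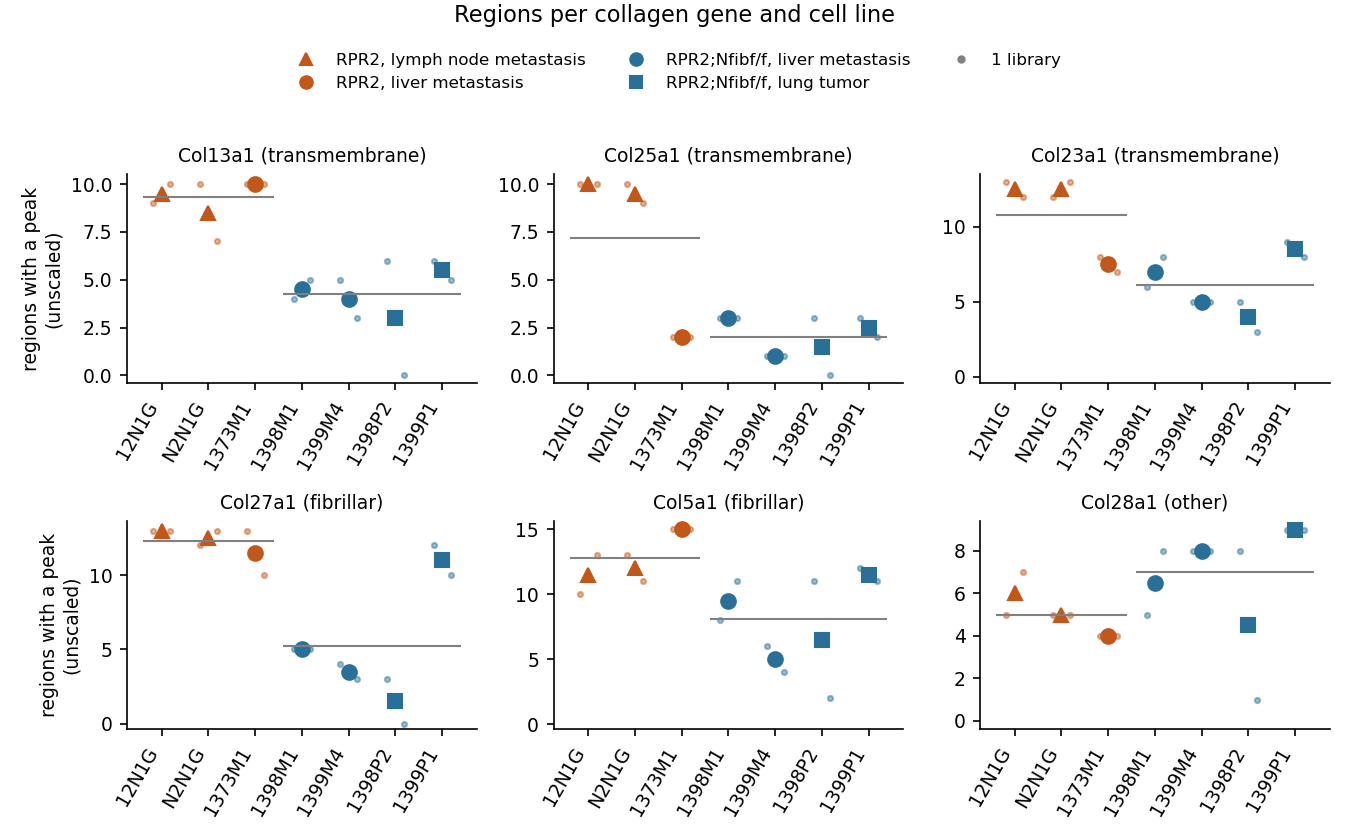
Number of regions with a peak, unscaled, at 6 collagen genes in each line (large symbol, mean of its 2 libraries) and library (small point), with genotype by color, tissue by symbol and the genotype mean as a line. Col13a1 separates the genotypes with 8.5 to 10 regions against 3 to 5.5, whereas the high lines of Col25a1 are the lymph node lines 12N1G and N2N1G alone.

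Among fibrillar collagens, 3 of 11 were tested, 2 of these were positive, and 0 were called (2 at an unadjusted p under 0.05). Of all tested genes, 52.7% were positive and 0.438% were called with more regions in RPR2 lines. At an unadjusted p under 0.05 this share was 10.8%. Each class had at most 4 tested genes, so the class counts describe single genes and not classes. Col5a1, which sets the diameter of collagen fibrils (chromosome 2, 27886381 to 28039510), had 11.5, 15 and 12 regions in 12N1G, 1373M1 and N2N1G against 9.5, 6.5, 5 and 11.5 in 1398M1, 1398P2, 1399M4 and 1399P1. Its lowest RPR2 line equaled its highest Nfibf/f line before scaling, and the difference was 0.69 ± 0.25 (SE; limma adjusted p = 0.155). Col1a1, the main chain of connective tissue, had 3 to 4 regions in every line and a difference of -0.01 ± 0.13. Its partner Col1a2 had 0 to 2 regions, Col5a2 0 to 1 and Col3a1 0 in every line. Per 100 kb, Col1a1 held 9.12 regions, above the 4.23 of the median gene, and it had a peak near a gene end in all 14 libraries.

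Type IV collagens had 4 of 6 members tested, 3 positive and 0 called (1 at an unadjusted p under 0.05). Over all tested genes these shares were 52.7%, 0.438% and 10.8%, the last 2 for more regions in RPR2 lines. Col4a3, among the positive ones, reached the minimum through the RPR2 lines, with an Nfibf/f mean of 2.75. Col4a1 and Col4a2, the chains of every basement membrane, lie head to head on chromosome 8 (11198423 to 11312889 and 11312805 to 11449287) and shared 2 regions. Col4a2 had 6.5, 4.5 and 6.5 regions in 12N1G, 1373M1 and N2N1G, and 5, 1.5, 3 and 4 in 1398M1, 1398P2, 1399M4 and 1399P1. The groups overlapped at 1373M1 and 1398M1, and the difference was 0.80 ± 0.26 (SE; limma adjusted p = 0.132). Col4a1 had 6 to 6.5 regions in RPR2 lines and 4.5 to 8 in Nfibf/f lines, with a difference of -0.04 ± 0.15. One region shared by the pair, 7130 bp before the start of Col4a2, was without a peak in RPR2 libraries (0 of 6) but had one in 7 of the 8 Nfibf/f libraries, all but replicate 2 of 1398P2. It was singled out after its values were seen.

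Fibril-associated collagens were positive in 4 of 4 tested of 9 members (52.7% of all tested genes were). Calls numbered 0 (0.438%), and 1 had an unadjusted p under 0.05 (10.8%, both shares for more regions in RPR2 lines). That one was Col9a1, a cartilage collagen, with 4, 3.5 and 4 regions in 12N1G, 1373M1 and N2N1G and 3, 1.5, 2 and 3 in 1398M1, 1398P2, 1399M4 and 1399P1. Its lines did not overlap, and the difference was 0.64 ± 0.19 (SE; limma adjusted p = 0.105). Col9a1 reached the minimum through the RPR2 lines, with an Nfibf/f mean of 2.375. Col22a1 and Col19a1, collagens of tissue junctions and of basement membrane zones, had means of 10 and 8.71 regions per line, with differences of 0.47 ± 0.24 and 0.25 ± 0.38. Both multiplexins, the basement membrane proteoglycans Col15a1 and Col18a1, were positive, and 0 were called. Of these, 1 had an unadjusted p under 0.05, Col18a1 (0.46 ± 0.17, limma adjusted p = 0.161).

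A negative difference was found for 4 members, Col28a1, Col8a1, Col4a1 and Col1a1. Col28a1, found around Schwann cells (chromosome 6, 7997100 to 8193709), had 6, 4 and 5 regions in 12N1G, 1373M1 and N2N1G and 6.5, 4.5, 8 and 9 in 1398M1, 1398P2, 1399M4 and 1399P1. The groups overlapped, and the difference was -0.42 ± 0.18 (SE; limma adjusted p = 0.208). Col8a1, a short-chain collagen of endothelial and corneal membranes, had 3.5 to 4.5 regions in RPR2 and 4 to 6.5 in Nfibf/f lines, a difference of -0.31 ± 0.19. Col26a1, a small collagen with an emilin domain, had 10, 10.5 and 8.5 regions in 12N1G, 1373M1 and N2N1G, and 6 in 1398M1 against 7 in each other Nfibf/f line. Its lines did not overlap before scaling but did after it, and the difference was 0.49 ± 0.17 (SE; limma adjusted p = 0.144). Only 1 of 6 type VI genes, Col6a6, reached the minimum for the test, at 0.16 ± 0.40. Col7a1, the anchoring fibril of skin, was tested at 0.55 ± 0.32.

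Library by library, Col13a1 held 13 regions. One of them, in the gene body 6638 bp from the start (61972016 to 61972470), was found in every RPR2 library and in 0 of 8 Nfibf/f libraries. A second, 480 bp inside the gene (61978061 to 61978628), had a peak in all 4 lymph node libraries and in 0 of 2 libraries of 1373M1 and 0 of 8 Nfibf/f libraries. The region just 5′ of the start, at 1218 bp, was shared, being called in 4 RPR2 libraries and in 7 of the Nfibf/f libraries. In all, 10 of the 13 had a peak in a larger share of RPR2 than of Nfibf/f libraries, and 2 had the reverse. The 10 include the region from 61838750 to 61839358, which lacked a peak only in the shallow replicate 2 of 1398P2. The lowest local background among a library's peaks at Col13a1 was 1.08 to 1.64 times the library's floor in RPR2 libraries. In the Nfibf/f libraries with a peak there it was 1 to 1.24 times the floor. Whether this bears on the difference was not tested.

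At Col25a1, the region over the start had a peak in 13 of 14 libraries, whereas 7 of its 10 regions had one in all 4 lymph node libraries and in neither library of 1373M1, 5 of them with 0 Nfibf/f libraries as well. They were spread over the gene, from 33414 bp to 353968 bp past the start. At Col27a1, 16 of 17 regions leaned to RPR2 libraries, and 7 had a peak in all 6 of them. One Col27a1 region, 6230 bp past the start, was RPR2-only, as in Col13a1. At Col23a1, 5 of 17 regions had a peak in all 4 lymph node libraries and neither 1373M1 library.

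**Figure D3:**
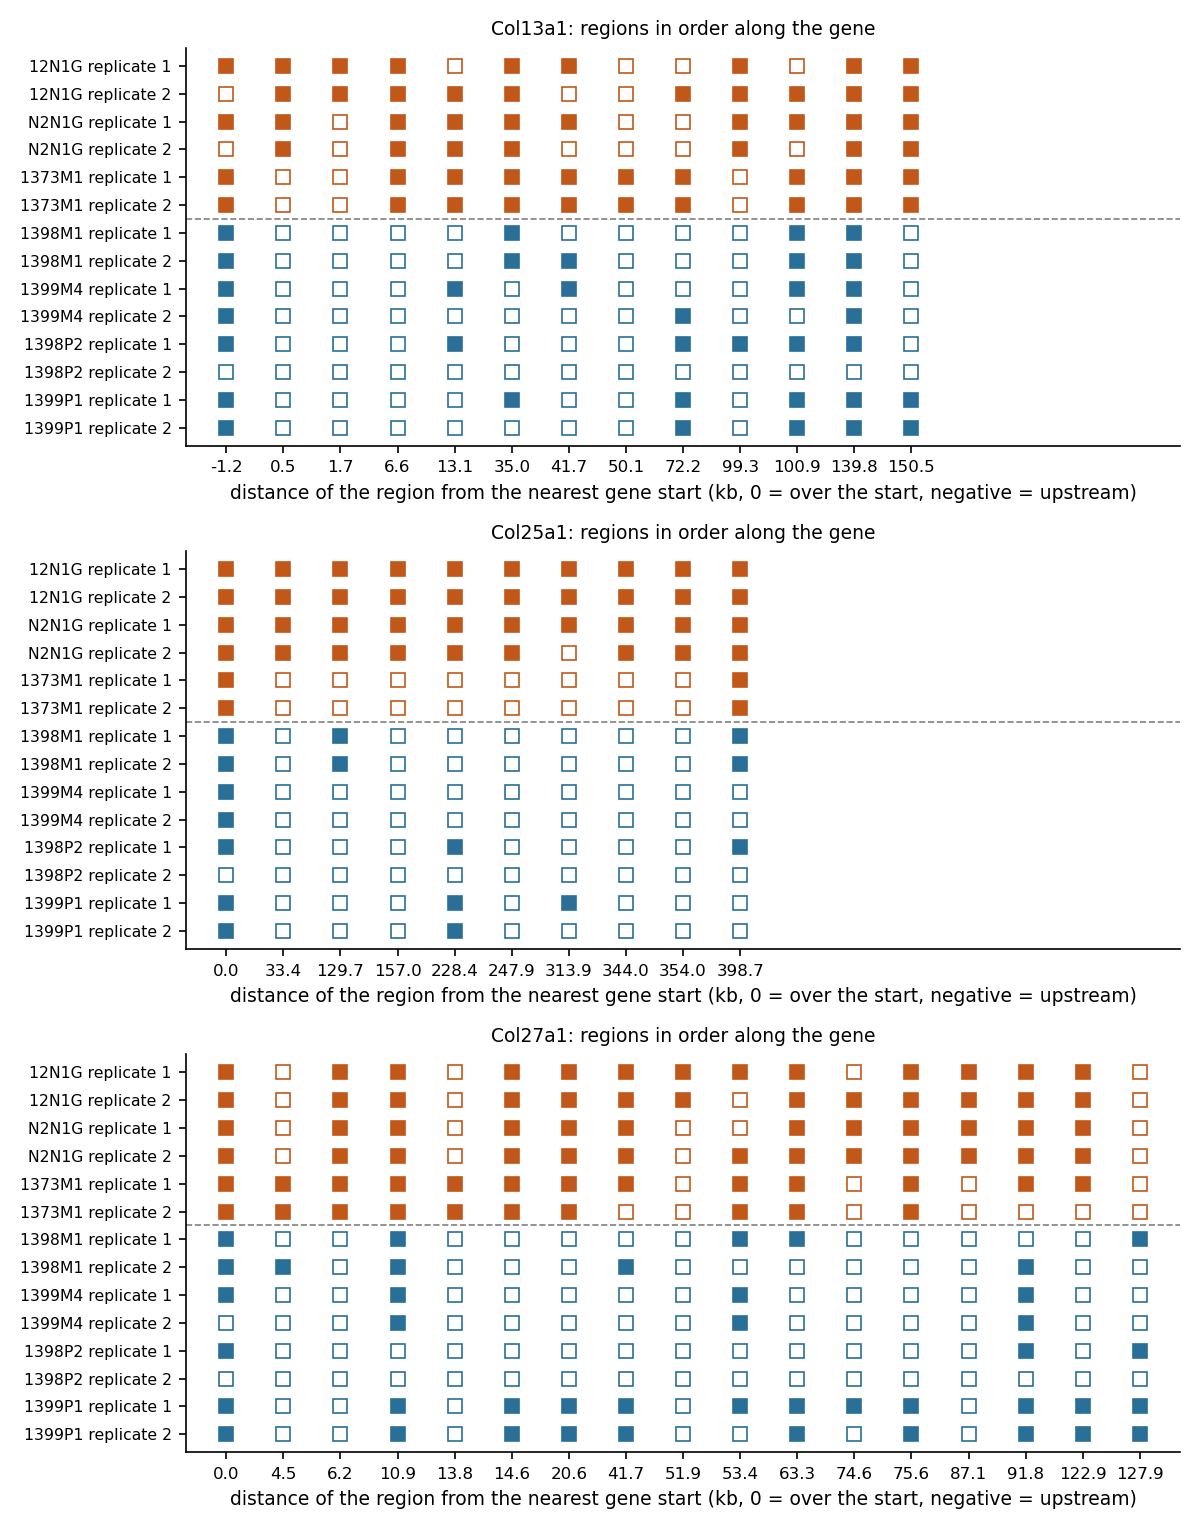
Peaks at each region of Col13a1, Col25a1 and Col27a1 (columns, in order along the gene, labelled with the distance from the nearest gene start in kb) in each of 14 libraries (rows); a filled square is a peak, orange for RPR2 and blue for Nfibf/f. One column at Col13a1 is filled in all 6 RPR2 libraries alone, 7 at Col25a1 are filled in the 4 lymph node libraries and empty in 1373M1, and 1399P1 fills more of Col27a1 than the other Nfibf/f lines.

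Over all 318 collagen regions, 201 (63.2%) had a peak in a larger share of RPR2 libraries and 91 (28.6%) in a larger share of Nfibf/f libraries. Over 79813 regions at all genes these shares were 39.4% and 41.0%. All 14 libraries were used, so a region that lacked a peak only in the shallow replicate 2 of 1398P2 counted toward RPR2. The direction counts were not recomputed without that library. Regions open in both libraries of every RPR2 line and in no Nfibf/f library numbered 6 (1.89%, background 1.12%), 1 each at Col13a1, Col27a1, Col5a1, Col9a1, Col26a1 and Col5a3. Col26a1 and Col5a3, a minor fibrillar chain, thus had such a region without a call. The reverse pattern was found once (0.314%, background 0.692%), in the body of Col5a1 (chromosome 2, 27987818 to 27989066). Col5a1 therefore held 1 region of each kind. Regions open in all 7 lines were 24 of 318 (7.55%, background 19.1%), and 87 were open in 1 line. Without replicate 2 of 1398P2, 50 of the 318 had a peak in every remaining library (15.7%, against 24.3% of regions at all genes).

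**Figure D4:**
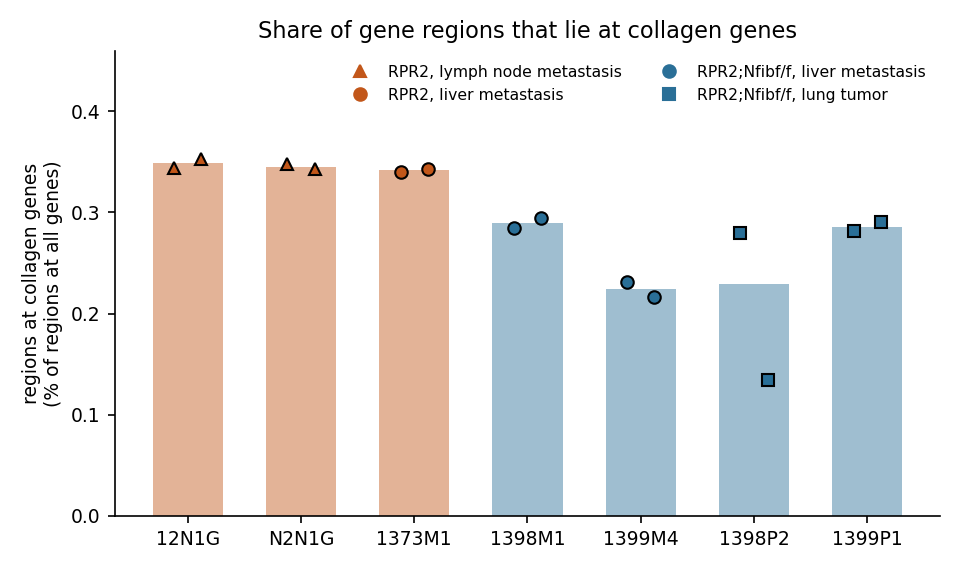
Share of all regions at genes that lay at collagen genes, in percent, per line (bar) and library (symbol; shape gives the tissue and color the genotype). The RPR2 libraries sit between 0.34% and 0.353%, above all Nfibf/f libraries, and replicate 2 of 1398P2 is lowest at 0.134%.

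Summed over the 44 members, collagen genes took 0.349%, 0.342% and 0.345% of the regions at genes in 12N1G, 1373M1 and N2N1G. In the Nfibf/f lines they took less, with 0.224% in 1399M4, 0.229% in 1398P2, 0.286% in 1399P1 and 0.290% in 1398M1. By library the RPR2 range was 0.34% to 0.353%. The Nfibf/f range was 0.217% to 0.295% leaving out replicate 2 of 1398P2, which had 0.134%. The groups did not overlap, by line or by library, and no test was made of this sum over genes chosen with results known.

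Of 35 members with a RefSeq start, 4 had a peak within 1 kb of it in all 14 libraries (11.4%, background 52.4% of 17492 genes). They were Col8a1, Col8a2, Col9a2 and Col18a1. Col15a1, Col23a1 and Col25a1 lacked a start peak in replicate 2 of 1398P2 only, and without that library the number was 7 of 35, against 56.6% of all genes. A further 9 had none in any library (25.7%, background 28.1%), among them Col3a1, Col17a1 and Col28a1. The remaining 22 had a peak in 1 to 13 libraries. The start of Col6a1, a chain of the beaded filaments around cells (chromosome 10, 76708792 to 76726044), had none in RPR2 libraries (0 of 6) and one in 7 of the Nfibf/f libraries, with replicate 2 of 1399M4 lacking it. At the start of Col13a1 all 4 lymph node libraries had one, through the region 480 bp inside the gene, and 1 Nfibf/f library had a peak outside that region. Unlike its start, the number of regions at Col6a1 had means of 2.5 in both genotypes. These starts were picked out after their values were seen.

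Collagen genes were long, with a median body of 114.4 kb against 17.2 kb over all protein-coding genes. Per 100 kb of body and flanks they held a median of 2.83 regions, against 4.23 over all genes. The highest density per 100 kb was 12.5, at Col8a2. Col13a1 had 3.99, Col27a1 5.88, Col23a1 2.59 and Col25a1 0.959. None of them was the densest member, but Col27a1 and Col13a1 lay above the members' median.

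Tissue and genotype were also fitted as 4 groups (RPR2 lymph node, RPR2 liver, Nfibf/f liver and Nfibf/f lung), in which the lone RPR2 liver line is assumed to vary like the others. In the liver, 1373M1 had 10 regions at Col13a1 against 4.5 and 4 in 1398M1 and 1399M4, which is 1.21 ± 0.24 (SE) on the log2 scale, with a limma adjusted p of 0.0736. No member was called by limma between the genotypes in liver (0 of 22, background 1.13%), and 6 had an unadjusted p under 0.05 (background 13.2%). Among these were Col4a4 at 1.19 and Col5a1 at 1.12, both higher in 1373M1, and Col28a1 at -0.72. The liver difference of Col25a1 was 0.17 ± 0.45, and its difference of lymph node minus liver among RPR2 lines was 2.03 ± 0.45 (limma adjusted p = 0.0797). In that contrast 0 of 22 members were called (background 1.82%) and 2 had an unadjusted p under 0.05 (background 12.8%). Between liver and lung in Nfibf/f lines, 0 of 22 were called (background 0.099%) and 3 were under an unadjusted 0.05 (background 6.42%). The smallest p of these was at Col22a1, with 12.5 and 10.5 regions in liver and 5 and 7 in lung lines, a difference of 0.79 ± 0.19 (limma adjusted p = 0.418). The contrasts share lines, and whether the genotype effect differed between tissues was not tested.

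Genes that build, process, bind or break down collagen were counted beside the collagens. Of 56 such genes 35 were tested, 0 were called by limma in either direction (1.41% of all tested genes were), and 19 were positive (54.3%, near the 52.7% of all tested genes), with a median log2 difference of 0.02. At an unadjusted p under 0.05, 2 (Tll2 and Adamts2) had more regions in RPR2 lines and 1 (Plod1) had more in Nfibf/f lines, or 5.71% and 2.86% beside 10.8% and 11.1% of all tested genes. Tll2, counted here among the processing genes, had 10, 5 and 10.5 regions in 12N1G, 1373M1 and N2N1G against 3.5, 1, 4.5 and 4.5 in 1398M1, 1398P2, 1399M4 and 1399P1 (difference 1.31 ± 0.37, limma adjusted p = 0.0974). Adamts2, which removes the amino end of procollagen, had a difference of 0.65 (limma adjusted p = 0.213), and the integrin chain Itga2 one of 0.75 (adjusted p = 0.404). The largest in the other direction were the lysyl hydroxylase Plod1 at -0.40 (limma adjusted p = 0.155), the receptor Adgrg6 at -0.33 and the protease Furin at -0.28. By role, 4 of 13 tested synthesis genes, 5 of 8 processing genes, 7 of 9 receptors and 3 of 5 breakdown genes were positive. Of 20 synthesis genes, 16 had a peak within 1 kb of the RefSeq start, or of either gene end where no start was given, in all 14 libraries. Over all protein-coding genes this share was 52.4% for RefSeq starts and 48.6% for either gene end.

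Markers of other cell types that could express collagen were counted in the same way. Endothelial markers summed to 17 to 19 regions in RPR2 lines and 9.5 to 15.5 in Nfibf/f lines. Of the 6, 3 were tested and 3 were positive, while 52.7% of all tested genes were positive. Over all tested genes, 0.438% were called with more regions in RPR2 lines. Cdh5, the junction cadherin of endothelium, was called (1.51 ± 0.23, limma adjusted p = 0.0246). It reached the minimum through the RPR2 lines, with means of 5 in RPR2 and 1.5 in Nfibf/f lines, so this call is not support. In 5 RPR2 libraries but 0 Nfibf/f libraries Cdh5 had a peak near one of its ends. Among the other endothelial markers, Kdr had a start peak in all 14 libraries and Tek in 6 RPR2 and 4 Nfibf/f libraries, while Pecam1, Tie1 and Emcn had none. Chondrocyte markers summed to 11.5 to 14 in RPR2 and 6 to 9 in Nfibf/f lines. Of the 4, 2 were tested and 2 were positive, again beside 52.7% of all tested genes. Both lists had too few tested markers for a share to be read. Matn1, a cartilage matrix protein, was called (0.76 ± 0.15, limma adjusted p = 0.0457), with no peak at its start in any library. Its Nfibf/f mean was also under the minimum (2.75, against 5 in RPR2 lines), so this call is not support either. Comp had a peak near a gene end in all 14 libraries, Sox9 in 4 RPR2 and 6 Nfibf/f libraries, and the start of Acan had one in 4 RPR2 and 0 Nfibf/f libraries. Fibroblast markers summed to 8 to 11.5 and 6.5 to 11, with 0 of 8 reaching the minimum, and Lum and Postn, a matrix proteoglycan and periostin, were at 0 in every line. Their part in the collagen differences was not tested.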

How the data were processed

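ATAC-seq peak lists of 14 libraries were analysed, 1 list per library, not pooled. The tools named in the submitters' processing notes are MACS2, SAMtools, Picard, Bowtie2 and cutadapt 2.10, with builds mm10 and GRCm38. Their roles and settings, and whether reads were shifted for the transposase, were not given in the sources used here. The authors deposited each summit's fold enrichment (a ratio to local background), its -log10 p-value and -log10 q-value, and a score that was not used. The lowest -log10 q was 1.3. Peaks overlapping by 1 bp were merged into 177684 regions, and the 119359 with a peak in both libraries of a line (open) were kept.

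Regions from 10 kb before to 10 kb past each RefSeq gene were counted, averaged over a line's libraries, scaled by the line's total over genes, and put on a log2 scale after adding 0.5. limma 3.58.1 (R 4.3.3, empirical Bayes with trend) tested 7070 genes with an unscaled mean of at least 3, with Benjamini-Hochberg adjustment at 0.05. Fold enrichment and p together gave local background. On data simulated for the genotype comparison (6391 genes run), limma recovered 28% of 100 genes changed 2-fold and 100% of 100 changed 4-fold, and called 3 unchanged genes. The simulation drew independent Poisson counts with line effects of the same spread for every gene, so these rates need not hold for the real lines. Alternatives changed thresholds, merging, flank, scaling, pseudocount, filter, libraries and lines. By rule, genes were named for the 5 largest positive differences, for a negative difference (4 members) and for the 5 highest numbers of regions. Those called and those with a genotype-specific region were also named by rule. Further members, such as Col6a1, Col17a1 and Col4a4, were named outside this rule, some after their values were seen. Members, gene lists and tests were chosen with earlier results of these data known.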

Additional observations from a re-analysis of the deposited data

Results flagged for a closer look

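At Col26a1, the Nfibf/f line 1398M1 had 6 regions, while the other 3 Nfibf/f lines had 7 each, so its gap to the nearest line was the whole range of the group. The limit it passed is one that about 1 in 20 groups pass by chance where values are continuous. The rate for tied counts such as these was not computed, and the gap here is 1 region.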

How the results depend on the processing

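Col13a1 kept its direction under 44 alternatives and passed the limma threshold under 33, with differences of 0.76 to 1.88 and adjusted p of 0.0121 to 0.342. It missed the threshold, and no collagen gene (0) was then called as higher in RPR2 lines, for peaks of -log10 q of at least 5 (0.76), regions open in both libraries only (1.88), no scaling (1.07), both lymph node lines averaged (1.11), and without line 12N1G (1.07), 1398P2 (1.03) or N2N1G (1.14). With equal numbers of peaks 3 members were tested and 0 called, and Col13a1 was not among those tested. Under these settings with 0 limma calls, 2 to 7 members had an unadjusted p under 0.05. Without line 1373M1, 3 were called (Col25a1, Col13a1 and Col23a1), while calls over all genes rose from 100 to 415. Leaving out single libraries or 1 replicate of all lines gave 0.93 to 1.86 for Col13a1, 0 to 1 calls, and a median member difference of 0.36 to 0.68. The highest values and 0 calls came without replicate 1 of 1398P2 (1.83, median 0.65) or of all lines, where the shallow replicate 2 stands for its line. Without that replicate 2, Col13a1 was 0.94 and the median 0.38. That median was 0.31 with 25 kb flanks and 0.74 for regions open in both libraries.

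Replicate numbers did not pair the lines (21 pairs, correlations of deviations -0.095 to 0.113, 2 over 0.1). With 14 libraries and the replicate block, Col13a1 was 1.40 (adjusted p = 0.2), without it 1.40 (adjusted p = 0.216), and both fits called Col23a1 (0.79) in its place, so 1 member was called under each. In the 4-group fit, calls ranged from 0 to 1 on leaving out a library: Col13a1 by genotype in liver without replicate 1 of 1373M1, and Col24a1, lymph node against liver, without replicate 2 of 1398P2. Nfibf/f-only regions were 0 with equal peaks, 2 with 25 kb and 1 to 2 without a library. RPR2-only regions were 6 to 8 without a library. The counts of regions and starts with a peak in every library, recomputed without replicate 2 of 1398P2, were added after seeing the data.

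Signs turned in 4 of the members named by rule, Col1a1, Col4a1, Col8a1 and Col19a1 (-0.01, -0.04, -0.31 and 0.25 as reported). Col1a1 was positive at 0.0332 (-log10 q of 2), 0.3186 (25 kb), 0.0118 (lymph node lines averaged), and 0.0329, 0.0119 and 0.0574 without lines 1398P2, 1399P1 and N2N1G, and ranged from -0.0721 to 0.053 without a library (-0.0716 and 0.0486 for those of 12N1G). Col4a1 was positive at 0.0145 (unmerged), 0.0585 (gene body), 0.1144 (25 kb), 0.2068 (open in both), 0.054 (without line 1398M1), 0.0064 (all merged regions, which like a filter on the scaled mean was added after seeing the data) and 0.0861 (both 14-library fits), and ranged from -0.25 to 0.42 without a library (-0.14 without replicate 2 of 1398P2). Col8a1 was 0.0313 with 25 kb, and Col19a1 -0.1275 without line 1398P2. The cause of these changes was not tested. Over all genes limma called 100, but 1 for regions open in both libraries and without replicate 1 of 1398P2 or of all lines, 2 for the gene body, the lymph node lines averaged and without 12N1G, 6, 7, 25 and 41 without lines 1398P2, N2N1G, 1399P1 and 1399M4, 24 with no scaling, 55 with equal peaks, 65 unmerged, 66 without replicate 2 of 12N1G, 212 with 25 kb, 226 without replicate 2 of 1398P2, 269 and 444 with a minimum of 1 region or none, 342 and 400 with and without the block, and 415 without 1373M1. The lists hold no read totals, and lower depth raises the smallest enrichment that can be called.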
